A study of Homo sapiens with 6 samples.

Results

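The transcripts described here encode proteins of the large subunit of the cytosolic ribosome. They are 43 genes chosen by name (RPL3 to RPL41 and the stalk genes RPLP0, RPLP1 and RPLP2), found as exact row names among the 25662 rows of the deposited expression table. All 43 were present and all 43 passed the minimum level for testing, so none is left out. RPL5, RPL11 and the paralogs with symbols ending in L are not in the set. The cells were HCT116, an established human colorectal carcinoma line, labelled as colon, grown in McCoy's medium with serum. The control group was 3 libraries from cells transfected with control siRNA, and the other group 3 libraries from cells transfected with siRNA against RRN3. The labels name no further treatment, and the sequence of neither siRNA, the time after transfection nor the dose is given in the sources used here. The comparison asks how these transcripts stand when RRN3 is depleted, first on the deposited scale and then as a share of the 43 genes together.

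A ribosome is built from ribosomal RNA, made mostly by RNA polymerase I, and from ribosomal proteins, whose genes are read by RNA polymerase II. RRN3 brings RNA polymerase I to the ribosomal RNA genes. The large subunit joins amino acids into protein at its peptidyl transferase centre, passes the new chain out through a tunnel, and binds the translation factors at a flexible stalk. Its protein mRNAs typically begin with a C and a run of pyrimidines, the 5′ terminal oligopyrimidine (TOP) sequence, through which their translation follows growth signals by way of mTOR and LARP1.

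That start was read from RefSeq start sites on GRCh38.p14, which cover 37 of the 43 genes, and the windows of the genes whose calls the results turn on are shown so that the starts can be compared. Each window holds 15 bases before the annotated start and 15 from the start onward. Capitals mark the longest unbroken run of C and T that touches the bases from 5 before to 5 after the start. The RPL39 run of 22 bases goes on past the end of its window. The first set fell both on the deposited scale and as a share of the 43 genes.
RPLP1 (chr15:69452803-69452832, plus strand): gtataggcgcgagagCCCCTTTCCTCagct
RPL3 (chr22:39319609-39319638, minus strand): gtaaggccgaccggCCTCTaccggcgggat
RPL28 (chr19:55385917-55385946, plus strand): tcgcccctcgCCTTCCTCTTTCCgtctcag
RPL12 (chr9:127451392-127451421, minus strand): ccgcgcgatttccggCCTCTCggctttcgg
RPLP0 (chr12:120201097-120201126, minus strand): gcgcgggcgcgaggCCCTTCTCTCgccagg
RPL10A (chr6:35468386-35468415, plus strand): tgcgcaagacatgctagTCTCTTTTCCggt
RPL39 (chrX:119791616-119791645, minus strand): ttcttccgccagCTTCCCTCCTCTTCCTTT
RPL13A (chr19:49487593-49487622, plus strand): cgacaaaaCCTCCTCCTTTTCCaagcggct
The second set rose as a share. RPL34 has more than 1 annotated start, of which the upstream one is given.
RPL34 (chr4:108620561-108620590, plus strand): aaaggCTTTTTTCTTCCTCTTCCggggacg
RPL36A (chrX:101390996-101391025, plus strand): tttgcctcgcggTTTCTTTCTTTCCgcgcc
RPL31 (chr2:101002274-101002303, plus strand): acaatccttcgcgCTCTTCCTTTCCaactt
RPL26 (chr17:8383179-8383208, minus strand): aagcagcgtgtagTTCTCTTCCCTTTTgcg
RPL24 (chr3:101686704-101686733, minus strand): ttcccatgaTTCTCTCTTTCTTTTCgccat
RPL37A (chr2:216498829-216498858, plus strand): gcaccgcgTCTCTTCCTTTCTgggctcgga

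A TOP-like start was searched on the transcribed strand as a C followed by at least 4 letters that are each C or T, beginning from 5 bases before to 5 bases after the start. It was found in 32 of the 37 genes (86.5%) at any of their starts, against 25.2% of 27305 genes in the same table. The run of C and T was 5 to 22 bases long in the 8 genes that fell on both scales, with a median of 10.5. In the 6 genes with a window that rose as a share it was 12 to 18 bases, with a median of 13.5. Both RPL3 (cctct) and RPL12 (cctctc) have short runs, while RPL28, with 13 bases, fell as they did. Over the 37 genes, run length and log2 change had Spearman's rho 0.19, as a description across genes that are not independent of one another. RPL7, RPL8, RPL23, RPL23A, RPL30 and RPL37 are named only.

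RRN3 itself was at 20.9, 14.7 and 14.1 TPM (a share of all transcripts, scaled by transcript length) with control siRNA and at 2.70, 1.22 and 0.925 TPM with RRN3 siRNA. It fell to 9.73% of control, with a log2 change of -2.79 (SE 0.27, limma adjusted p = 0.000301). An exact permutation test of its TPM (two-sided) gave p = 0.1, and no smaller p is possible with 3 libraries a group. Depth is unknown, since TPM keeps none, and between 17361 and 18632 genes per library were above 0. GC-poor transcripts were relatively more abundant in both libraries numbered 1. Across tested genes, the deviation of these libraries from the group mean correlated with GC content at -0.46 (control siRNA) and -0.52 (RRN3 siRNA), against 0.43 and 0.47 in control siRNA replicate 2 and RRN3 siRNA replicate 3. Of 10 colon epithelial markers 9 were in the table and 6 had a mean of at least 1 TPM, among them EPCAM, CDH1 and the keratins KRT8, KRT18 and KRT19. KRT20, VIL1 and CDH17, markers of differentiated intestine, were below 1 TPM in every library. KRT8, KRT18 and KRT19 rose, and the summed epithelial markers were at 5435 to 6491 TPM with control siRNA and 12360 to 13510 TPM with RRN3 siRNA, and the part of this in the results below was not tested. Fibroblast markers summed to 6.80 to 10.4 TPM, nearly all COL1A1, and endothelial and immune markers to at most 1.17 TPM.

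The 43 transcripts together made up 10.2% of all TPM in control siRNA and 9.19% in RRN3 siRNA libraries. Their sum was 102290, 95620 and 107090 TPM with control siRNA and 85419, 91868 and 96016 TPM with RRN3 siRNA. The highest RRN3 siRNA library lay just above the lowest control siRNA library, so the groups overlapped. The mean sum with RRN3 siRNA was 89.6% of control, and 95.5% once RPLP0, RPLP1, RPL3 and RPL12, chosen after their values were seen, were left out. After median-of-ratios scaling it was 0.950 times control. These values are shares of the RNA of a bulk culture, so fewer cells with a transcript and less of it per cell cannot be told apart, and total RNA per cell was not measured.

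On the per-length TPM scale the 43 levels spanned 10.8-fold in control siRNA. RPLP0, RPL13 and RPL4 had the highest mean levels over all libraries. RPL13, a surface protein of the subunit, was at 4216, 4707 and 4698 TPM with control siRNA and 4404, 4576 and 4761 TPM with RRN3 siRNA. RPL4, which reaches into the exit tunnel, was at 4928, 4494 and 4285 TPM and then 4545, 4446 and 4422 TPM. For both genes the groups overlapped, and their control means of 4540 ± 281 and 4569 ± 328 TPM (SD, n = 3) did not differ beyond their spread. The lowest levels were those of RPL22, RPL36A and RPL36. RPL22, a protein near the tunnel exit, was at 601, 488 and 593 TPM and then 526, 520 and 508 TPM. The order of the genes by level was closely kept within groups (Spearman's rho 0.965 to 0.991 over 6 pairs of libraries) and less so between them (0.844 to 0.907 over 9 pairs). RPLP1 went from rank 4 to rank 18 of the 43, RPL3 from 12 to 25 and RPL28 from 29 to 42. RPL30 moved from rank 9 to 4 and RPL37A from 10 to 5.

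**Figure D1:**
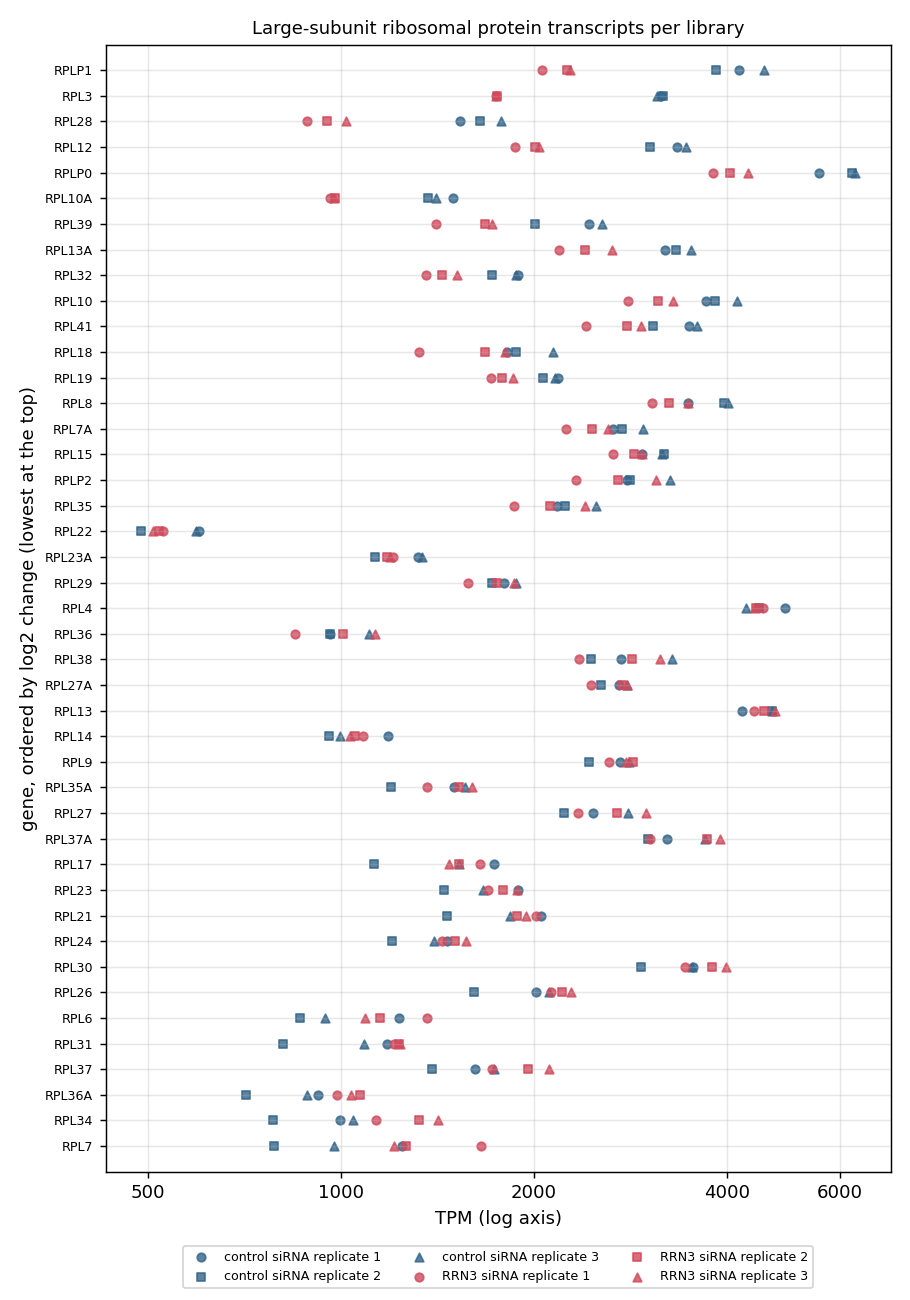
TPM of each of the 43 genes (log axis) in the 3 control siRNA libraries (blue) and the 3 RRN3 siRNA libraries (red), with genes ordered by log2 change. The groups are apart for RPLP1, RPL3, RPL28 and RPL12 at the top and overlap for most genes in the middle.

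As deposited, 12 of the 43 genes fell, 1 rose and 30 did not pass the test. Across all 12157 genes tested, 30.3% passed, 19% downward and 11.2% upward, and among 175 other genes with a mean of at least 500 TPM 24.6% fell and 19.4% rose. The share of the set that fell is therefore near that of other highly expressed genes. The median log2 change of the set was -0.03, against -0.05 over all genes tested, and its members ranged from -0.93 to 0.47. In 15 members every RRN3 siRNA library lay below every control siRNA library and in 4 above, where 26.9% and 17.9% of all genes did so. With quantile normalization 12 members fell and 8 rose, where 18.8% and 18.1% of all genes did. With median-of-ratios scaling 5 members fell and 1 rose (17.4% and 16.6% of all genes). With the GC trend of each library removed 7 fell and 1 rose (22% and 22.7% of all genes). Under both settings the member that rose was RPL7 (limma adjusted p = 0.0259 and 0.0113), not RPL34. RPLP1, RPL3, RPL28, RPL12 and RPL10A fell under all 19 alternatives run on the deposited scale.

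Of the stalk and its base, 3 of 4 genes fell, where 19% of all tested genes did. Among other genes at 500 TPM or more 24.6% fell. The structural groups were listed with earlier results of these data known. RPLP1, an acidic stalk protein that binds the translation factors, was at 4182, 3847 and 4571 TPM with control siRNA and 2054, 2252 and 2279 TPM with RRN3 siRNA. It fell to 52.3% of control, the lowest value in the set (log2 change -0.93, SE 0.09, limma adjusted p = 0.000282). RPL12, which sits at the stalk base, was at 3338, 3028 and 3451 TPM and then 1869, 2004 and 2038 TPM. It fell to 60.2% of control (log2 change -0.73, SE 0.08, limma adjusted p = 0.000505). RPLP0, the protein that anchors the stalk, was at 5565, 6268 and 6332 TPM and then 3802, 4050 and 4306 TPM. It fell to 66.9% of control (log2 change -0.58, SE 0.09, limma adjusted p = 0.00218), and for all these genes the groups were apart. RPLP2, the partner with which RPLP1 forms dimers, was at 2797, 2822 and 3256 TPM and then 2322, 2702 and 3102 TPM. Its groups overlapped and it did not pass (log2 change -0.13, 95% interval -0.41 to 0.14, limma adjusted p = 0.445). The ratio of RPLP1 to RPLP2, chosen after its values were seen, was 1.5, 1.36 and 1.4 in control siRNA and 0.885, 0.834 and 0.735 in RRN3 siRNA libraries. RPLP1 was thus the more abundant of the pair in every control library and the less abundant in every RRN3 siRNA library. RPLP0 no longer passed after scaling by median of ratios (adjusted p = 0.0797, against 2.55e-05 to 0.0797 over its alternatives).

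Around the functional centre and the face toward the small subunit, 4 of 8 genes fell, where 19% of all tested genes did. RPL3, which reaches toward the peptidyl transferase centre, was at 3150, 3175 and 3116 TPM with control siRNA and 1741, 1752 and 1743 TPM with RRN3 siRNA. Its replicates were the closest of the set, with a coefficient of variation of 0.941% in control siRNA, and it fell to 55.5% of control (log2 change -0.85, SE 0.06, limma adjusted p = 8.85e-05). RPL10A, the protein of the mobile stalk where spent tRNA leaves, was at 1494, 1366 and 1406 TPM and then 961, 978 and 976 TPM. It fell to 68.3% of control (log2 change -0.55, SE 0.07, limma adjusted p = 0.000784). RPL10, which is added late in assembly near the peptidyl transferase centre, was at 3706, 3835 and 4150 TPM and then 2805, 3125 and 3294 TPM. RPL41, a peptide of 25 codons at the subunit interface, was at 3486, 3070 and 3597 TPM and then 2411, 2791 and 2937 TPM. Both fell by less, to 78.9% and 80.2% of control (limma adjusted p = 0.0215 and 0.047), and in both the groups were apart. The others of this region, RPL8, RPL23, RPL24 and RPL36A, did not pass, with log2 changes from -0.23 to 0.31. RPL10 no longer passed when replicate 2 or 3 of control siRNA, or replicate 2 of RRN3 siRNA, was left out (adjusted p = 0.0525, 0.0831 and 0.081, against 0.00217 to 0.325 over its alternatives). The RPL41 call ended without control siRNA replicate 1 or 3 or RRN3 siRNA replicate 1 or 2 (adjusted p = 0.107, 0.152, 0.0908 and 0.117, against 0.0111 to 0.37), and both calls ended with median-of-ratios scaling and with the GC trend removed.

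Of the 9 proteins that line the exit tunnel or ring its mouth, 2 fell and 7 did not pass. The share that fell is near the 19% of all tested genes. RPL39, a small protein in the tunnel wall, was at 2434, 2005 and 2555 TPM with control siRNA and 1407, 1676 and 1716 TPM with RRN3 siRNA. It fell to 68.6% of control (log2 change -0.54, SE 0.12, limma adjusted p = 0.0107). RPL19, near the tunnel exit, was at 2181, 2066 and 2154 TPM and then 1711, 1785 and 1854 TPM. It fell to 83.6% of control (log2 change -0.26, SE 0.07, limma adjusted p = 0.0239), and the groups of both genes were apart. RPL4, RPL17, RPL22, RPL23A, RPL26, RPL31 and RPL35 had log2 changes from -0.12 to 0.27. RPL39 no longer passed after scaling by median of ratios or with the GC trend removed (adjusted p = 0.0917 and 0.1, against 0.00163 to 0.1 over its alternatives), while its log2 change was -0.47 and -0.53 and its SE 0.20 and 0.23. The RPL19 call ended under 10 of 19 alternatives, including those without control siRNA replicate 1 or 3 or RRN3 siRNA replicate 1 or 2 (adjusted p = 0.0552, 0.0756, 0.0659 and 0.112, against 0.00902 to 0.421).

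Among the other 22 proteins, most of them on the outer shell, 3 fell, 1 rose and 18 did not pass. Over all tested genes 19% fell and 11.2% rose. RPL28, a protein with no bacterial counterpart, was at 1534, 1648 and 1774 TPM with control siRNA and 883, 951 and 1017 TPM with RRN3 siRNA. It fell to 57.5% of control (log2 change -0.80, SE 0.09, limma adjusted p = 0.000465), with the groups well apart. RPL13A, which also works outside the ribosome as a translational silencer in monocytes, was at 3205, 3327 and 3518 TPM and then 2189, 2400 and 2648 TPM. It fell to 72% of control (limma adjusted p = 0.0057). RPL32 was at 1885, 1720 and 1876 TPM and then 1357, 1438 and 1518 TPM, and fell to 78.7% of control (limma adjusted p = 0.0111). Neither gene had overlapping groups. RPL34 was at 997, 783 and 1043 TPM and then 1132, 1324 and 1417 TPM. It was the member that rose, to 137% of control (log2 change 0.46, SE 0.13, limma adjusted p = 0.0298). RPL34 no longer passed when replicate 2 of control siRNA, or replicate 2 or 3 of RRN3 siRNA, was left out (adjusted p = 0.0778, 0.101 and 0.0777, against 0.000168 to 0.134 over its alternatives), and the RPL32 call without RRN3 siRNA replicate 2 (adjusted p = 0.0607, against 0.00112 to 0.237). With median-of-ratios scaling RPL13A, RPL32 and RPL34 did not pass (adjusted p = 0.135, 0.237 and 0.0553), with log2 changes of -0.40, -0.27 and 0.54. With the GC trend removed RPL32 and RPL34 did not pass (adjusted p = 0.0899 and 0.134), with log2 changes of -0.28 and 0.48.

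The 30 members that did not pass had 95% intervals of the log2 change that lay within -0.58 and 0.88, so changes of moderate size cannot be told from none for several of them. RPL18, RPL8 and RPL7A were lower in all RRN3 siRNA than in all control siRNA libraries yet did not pass (limma adjusted p = 0.124, 0.0929 and 0.126). RPL26, RPL31 and RPL36A were higher in all RRN3 siRNA libraries and did not pass either (limma adjusted p = 0.171, 0.16 and 0.0611). RPL7 had the widest spread in control siRNA, at 1246, 786 and 974 TPM, and was at 1650, 1263 and 1210 TPM with RRN3 siRNA. Control siRNA replicate 1 lay above RRN3 siRNA replicate 3, so the groups overlapped, and the log2 change of 0.47 had an interval of 0.05 to 0.88 (limma adjusted p = 0.0887). Without both libraries numbered 1 RPL7 rose (limma adjusted p = 0.000555). Of these 30 members, 18 had their lowest value of all libraries in control siRNA replicate 2, among them RPL17, RPL21, RPL23, RPL31 and RPL36A, and so did RPL34. Another 22 of the 43 members, 12 of them members that fell, were lowest in RRN3 siRNA replicate 1. The part of all tested genes that was lowest in these libraries is not given, so these counts may not be particular to the members.

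Dividing each library by the summed TPM of the 43 genes removes the difference in their total and asks which members took a smaller or larger part of it. On this scale 8 members fell and 9 rose, where 9.4% and 12% of all 12157 genes did (21.4% in all), and 14.3% and 29.7% of the 175 other genes at 500 TPM or more. The groups did not overlap in 12 members that were lower and 17 that were higher as shares, against 16.4% and 22.6% of all genes. Because parts of a fixed total are compared, a fall in some members raises the others. The division moved the median of all tested genes from -0.05 to 0.09 on the log2 scale. The 8 that fell (RPLP1, RPL3, RPL28, RPL12, RPLP0, RPL10A, RPL39 and RPL13A) had also fallen as deposited. RPL32, RPL10, RPL41 and RPL19 did not pass as shares, with log2 changes from -0.19 to -0.10.

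**Figure D2:**
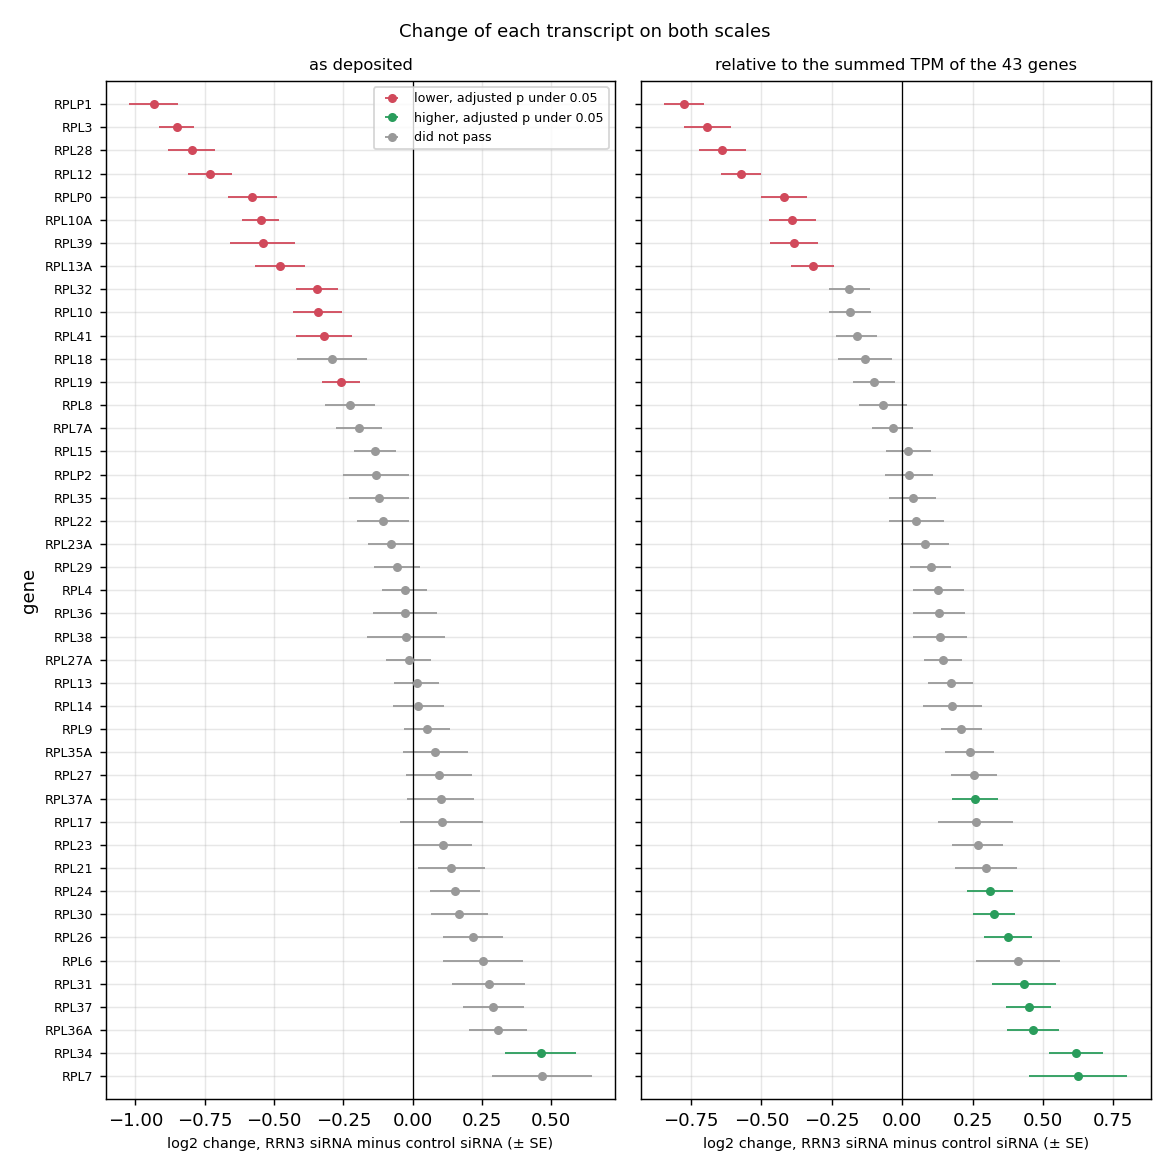
Log2 change with its SE for each of the 43 genes as deposited (left) and after division by the summed TPM of the set (right), colored by whether the gene passed the test. The order of the genes is close to the same in both panels and 9 genes pass upward on the right, from RPL37A to RPL7, against RPL34 alone on the left.

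The 8 members that fell on both scales held 24.4%, 25.8% and 24.9% of the summed TPM in control siRNA and 17.4%, 17.5% and 17.4% in RRN3 siRNA libraries. These sums describe genes picked by the same test. RPLP1 made up 4.09%, 4.02% and 4.27% of the set with control siRNA and 2.4%, 2.45% and 2.37% with RRN3 siRNA (log2 change of the share -0.77, SE 0.07, limma adjusted p = 7.81e-05). RPL3 made up 3.08%, 3.32% and 2.91% and then 2.04%, 1.91% and 1.81% (log2 change -0.69, limma adjusted p = 0.000376). For RPL28 the shares were 1.5%, 1.72% and 1.66% and then 1.03%, 1.04% and 1.06% (limma adjusted p = 0.000577). All of these groups were apart. RPL12 had shares of 3.26%, 3.17% and 3.22% and then 2.19%, 2.18% and 2.12%, closer among replicates than its TPM values were. RPLP0, the most abundant member in control siRNA, had 5.44%, 6.55% and 5.91% and then 4.45%, 4.41% and 4.48%. The share calls of RPLP1, RPL3, RPL28 and RPL12 held under all 20 alternatives run on this scale. Among these, quantile normalization and the removal of the GC trend take out the division, so they nearly repeat the deposited scale. RPL10A, RPL39 and RPL13A had log2 changes of the share of -0.39, -0.38 and -0.32 (limma adjusted p = 0.00909, 0.0105 and 0.0145). Without RRN3 siRNA replicate 2 the RPL10A and RPL13A share calls ended (adjusted p = 0.0547 and 0.0869), as did those of RPL39 and RPL13A without control siRNA replicate 3 (adjusted p = 0.0532 and 0.0565), against at most 0.0849, 0.105 and 0.142 over the alternatives of RPL10A, RPL39 and RPL13A.

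The 9 members whose share rose held 15.8%, 13.8% and 15.3% of the set with control siRNA and 19.6%, 19.7% and 19.5% with RRN3 siRNA, again for genes picked by the test. RPL34 made up 0.974%, 0.819% and 0.974% and then 1.32%, 1.44% and 1.48% (log2 change of the share 0.62, SE 0.10, limma adjusted p = 0.00159). RPL37, which can bind the p53 regulator MDM2, had 1.58%, 1.45% and 1.62% and then 2.02%, 2.13% and 2.2% (log2 change 0.45, limma adjusted p = 0.00356). RPL36A, near the site where tRNA leaves, had 0.899%, 0.742% and 0.826% and then 1.16%, 1.17% and 1.08% (log2 change 0.47, limma adjusted p = 0.00647). In each of these the RRN3 siRNA libraries were all higher. RPL26, known to bind the mRNA of p53, had 1.97%, 1.69% and 1.97% and then 2.49%, 2.41% and 2.38% (limma adjusted p = 0.0113). RPL30 had 3.46%, 3.07% and 3.3% and then 4.03%, 4.12% and 4.15% (limma adjusted p = 0.0117). RPL24, which forms a bridge to the small subunit, had 1.43%, 1.26% and 1.3% and then 1.68%, 1.64% and 1.63% (limma adjusted p = 0.0213). All 3 had groups that were apart as shares. RPL31, at the tunnel exit, had 1.15%, 0.848% and 1.01% and then 1.42%, 1.34% and 1.29% (limma adjusted p = 0.0217). RPL7 had 1.22%, 0.822% and 0.91% and then 1.93%, 1.38% and 1.26% (limma adjusted p = 0.0292), with its highest value in each group in the library numbered 1. RPL37A, with 3.15%, 3.15% and 3.44% and then 3.56%, 4.05% and 4.06%, passed by the smallest margin (limma adjusted p = 0.0479). RPL7 and RPL31 did not pass as shares without control siRNA replicate 2 (adjusted p = 0.161 and 0.0516) or replicate 3 (0.0993 and 0.061). Without RRN3 siRNA replicate 2, RPL31, RPL24, RPL26 and RPL30 did not pass (adjusted p = 0.0661, 0.102, 0.0544 and 0.0719), nor did RPL24 without control siRNA replicate 3 (0.0804). RPL37A passed only with RRN3 siRNA replicate 1 as the single library left out (adjusted p = 0.0744 to 0.214 without any other). Over all alternatives the highest adjusted p of these shares was 0.161 for RPL7 and 0.692 for RPL37A. With the GC trend removed it was highest for RPL31 (0.0995), RPL24 (0.318), RPL26 (0.317), RPL30 (0.463), RPL34 (0.112), RPL36A (0.133) and RPL37 (0.26). The RPL36A and RPL37 share calls also ended with eBayes without trend (adjusted p = 0.0573 and 0.0548). The number that rose as a share was 5 without control siRNA replicate 3, 4 without RRN3 siRNA replicate 2 and 15 without both libraries numbered 1. The part of all genes is not given for these counts. With the GC trend of each library removed 1 rose and 7 fell, the same counts as on the deposited scale. That removal also takes out the division by the summed TPM, so it does not test the share calls against GC content.

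**Figure D3:**
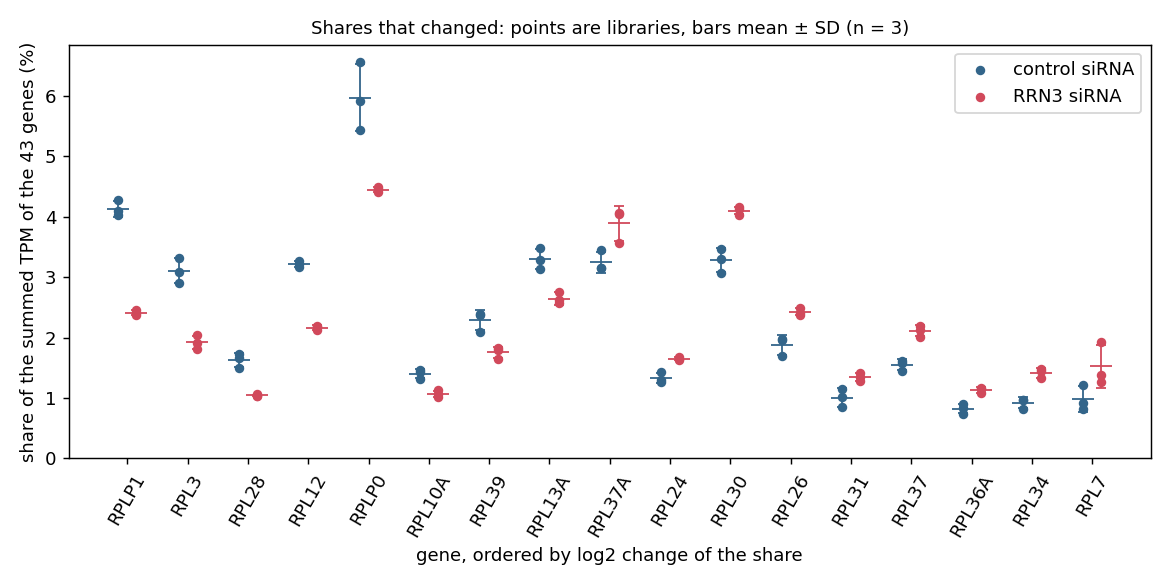
Share of the summed TPM of the 43 genes (percent) held by each of the 17 members that passed the test on this scale, with points for libraries and bars for mean ± SD (n = 3 per group). The first 8 genes are lower with RRN3 siRNA and the other 9 are higher, with no overlap in any of them.

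Several features of the genes were set beside the log2 change as deposited, as descriptions across 43 genes. GC content of the principal transcript ran from 42.1% to 63.6%, and its Spearman correlation with the log2 change was -0.57 (Pearson -0.45), against -0.13 over 11643 tested genes with a GC value. The median GC content was 52.8% in the 12 members that fell and 45% in the 9 whose share rose. RPLP1, RPL39 and RPL41, with 47.7%, 43.9% and 49.5% GC, lay below the median of the set (49.6%) and fell, and RPLP2, the GC-richest member, did not pass. With the GC trend of each library removed, RPL3, RPL10A, RPL12, RPL13A, RPL28, RPLP0 and RPLP1 fell as deposited, and RPL7 rose (log2 change 0.50, limma adjusted p = 0.0113). Control level and log2 change had a Spearman correlation of -0.52, against -0.09 over all tested genes, and they share the control libraries. Codon number, from 25 for RPL41 to 427 for RPL4, had a correlation of -0.20.

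**Figure D4:**
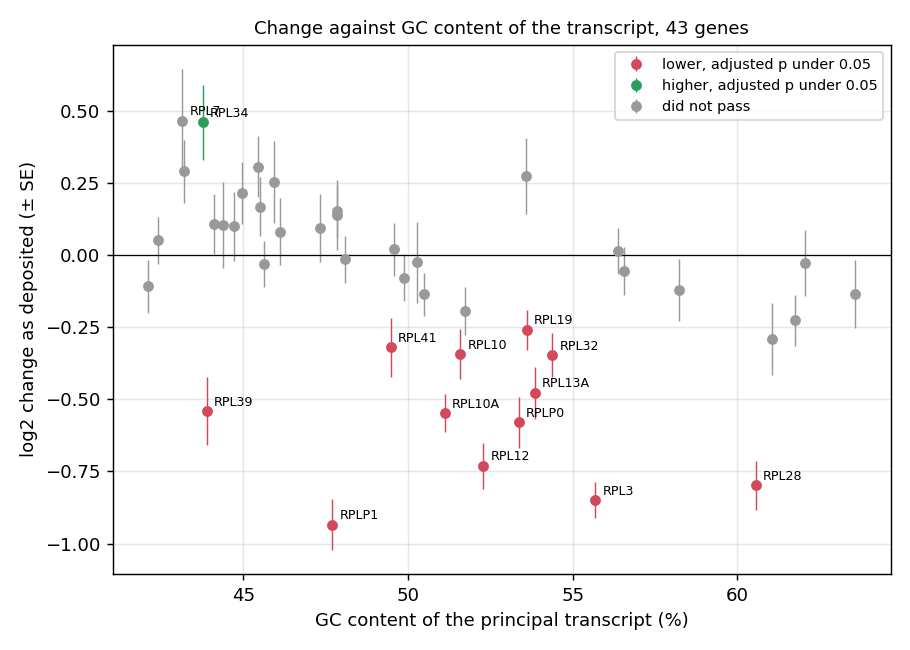
Log2 change as deposited with its SE against GC content of the principal transcript (percent) for the 43 genes, colored by whether the gene passed the test. Most genes below the median of 49.6% GC lie near or above 0, and RPLP1, RPL39 and RPL41 are those below it that fell.

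Annotated small nucleolar RNAs, which guide chemical modification of ribosomal RNA, lie on the same strand within the bounds of 17 of the 43 genes. Examples are SNORD43, SNORD83A and SNORD83B in RPL3. Whether they lie in introns was not checked. Of these 17 genes 6 fell and 0 rose (median log2 change -0.08), and of the other 26 genes 6 fell and 1 rose (median -0.03). Over all tested genes 19% fell and 11.2% rose. The genes lie on 18 chromosomes, with 6 each on chromosomes 3 and 17. RPLP1 (ENSG00000137818) lies on chromosome 15 at 69452784 to 69456194 on the plus strand in GRCh38, and RPL3 (ENSG00000100316) on chromosome 22 at 39312882 to 39320389 on the minus strand. Of 7 members in which inherited variants are known to cause Diamond-Blackfan anemia (RPL15, RPL18, RPL26, RPL27, RPL31, RPL35 and RPL35A), 0 passed as deposited, with log2 changes from -0.29 for RPL18 to 0.27 for RPL31, and RPL26 and RPL31 rose as shares.

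Ribosomal protein genes have many processed pseudogenes whose sequence can draw reads away from them. The table holds 497 rows named as pseudogenes of the 43 genes, of which 355 were above 0 in some library. Together they summed to 833 to 1305 TPM per library, or 0.868% to 1.28% of the summed TPM of the members. RPL41 was the member most affected, with pseudogene rows at 20.5% of its own level, followed by RPL23A at 6.99%. Adding each member's pseudogene rows gave the same number of falls and rises (12 and 1), and RPL41 then had a log2 change of -0.35 in place of -0.32.

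RPL5 and RPL11, outside the set, were set beside it. RPL11, which with RPL5 forms a particle with the smallest ribosomal RNA of the subunit and can bind MDM2, was at 1322, 1137 and 1255 TPM with control siRNA and 1368, 1359 and 1367 TPM with RRN3 siRNA. RPL5 was at 1332, 963 and 978 TPM and then 1360, 1122 and 1018 TPM. Neither RPL11 nor RPL5 passed as deposited (limma adjusted p = 0.199 and 0.663). After division by the summed TPM of the 43 genes RPL11 rose (log2 change 0.30, limma adjusted p = 0.0295), as did 12% of all tested genes. RPL5 did not pass on that scale (limma adjusted p = 0.288). Of 33 small-subunit protein genes 8 fell, 1 rose and 24 did not pass (median log2 change -0.12), and their mean sum was 87.7% of control. Of 49 genes of the mitochondrial large subunit 12 fell, 3 rose and 34 did not pass (median -0.08), with a mean sum of 92.8% of control. Over all tested genes 19% fell and 11.2% rose. The difference between these sets and the 43 genes was not tested.

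Of 17 other mRNAs listed as having a TOP start, 4 fell and 13 did not pass (median log2 change -0.27). The share that fell is near the 19% of all tested genes that did. EEF2, which moves the ribosome along the mRNA and works at the stalk, was at 1977, 2381 and 2056 TPM with control siRNA and 1261, 1223 and 1200 TPM with RRN3 siRNA (limma adjusted p = 0.000472). EEF1D, an exchange factor subunit, fell from 807 ± 38.1 to 416 ± 5.97 TPM (limma adjusted p = 6.59e-05). HNRNPA1, an RNA-binding protein, fell from 1231 ± 188 to 643 ± 178 TPM, and the initiation factor subunit EIF3F from 293 ± 15.9 to 214 ± 3.27 TPM (limma adjusted p = 0.0071 and 0.00234).

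Among 16 genes that control TOP mRNAs through mTOR, 2 rose, 3 fell and 11 did not pass. Over all tested genes 11.2% rose and 19% fell. The sestrins SESN1 and SESN2, which restrain mTOR complex activity, both rose. SESN1 was at 4.19 ± 0.548 TPM with control siRNA and 27.4 ± 8.99 TPM with RRN3 siRNA, and SESN2 at 13.1 ± 1.04 and 38.6 ± 1.99 TPM (limma adjusted p = 0.000221 and 6.73e-05). MLST8, an mTOR subunit, fell from 45.9 ± 5.29 to 13.8 ± 1.5 TPM, and EIF4EBP1, a repressor of cap-dependent translation, from 158 ± 14.8 to 103 ± 3.33 TPM (limma adjusted p = 8.83e-05 and 0.00167). Of 10 proteins that escort or receive large-subunit proteins, 4 rose and 6 did not pass, where 11.2% of all tested genes rose. This list was chosen with earlier results of these data known. GRWD1, a chaperone of RPL3, rose from 38 ± 6.45 to 54.1 ± 3.7 TPM while RPL3 fell (limma adjusted p = 0.0199). RSL24D1, the placeholder for RPL24, rose from 39.3 ± 9.53 to 59.5 ± 2.78 TPM (limma adjusted p = 0.0231). RRS1, which helps load RPL5 and RPL11, rose from 24.9 ± 1.01 to 52.7 ± 2.79 TPM, and EIF6, which keeps the new subunit from joining too early, from 251 ± 18.2 to 369 ± 37.4 TPM (limma adjusted p = 0.000156 and 0.00386).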

How the data were processed

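RNA sequencing covered 6 libraries of HCT116 cells, 3 per group, which the design text describes as biological replicates. Groups and replicate numbers came from the labels. Per the labels' protocols, random hexamers primed the cDNA after Ribo-Zero depletion of ribosomal RNA, and the molecule is given as poly(A) RNA. The authors deposited 1 TPM value per gene symbol and library. STAR, Salmon and GRCh38 are named in the submitters' processing notes, without versions. Neither annotation nor filters is given in the sources used here.

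Values were analysed as log2(TPM + 1), which understates the change of low genes, with limma 3.58.1 in R 4.3.3. Of 25662 rows, 12157 with a mean of at least 1 TPM were tested with the group alone in the model and eBayes with an intensity trend. Benjamini-Hochberg adjustment ran over all tested genes, with a threshold of 0.05. "Rose", "fell" and "passed" refer to this threshold. The same fit was run after each library was divided by its summed TPM of the 43 genes and multiplied by the mean of those sums. The fit was tested on simulated data.

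The members, the gene lists and the tests were chosen with earlier results of these data known. Named in full are the members that passed in either fit, the 3 with the highest and the lowest mean level, and up to 4 genes with the smallest adjusted p from each other list. RRN3 is named too, and genes outside this rule were picked with their values in view or complete a group. Some genes of the lists are not reported here. Coordinates, GC content (95.8% of tested genes matched by symbol) and small nucleolar RNA genes came from GENCODE 29 on GRCh38, using for GC the principal transcript with the best support level. For the GC alternative, a loess curve (span 0.3) was subtracted in each library. Start windows came from RefSeq on GRCh38.p14. Figures were drawn with Python 3.11.15, pandas 2.3.3 and matplotlib 3.10.9.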

Additional observations from a re-analysis of the deposited data

How the results depend on the processing

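As deposited, the number of members that fell (12) was 7 with the GC trend removed and 5 with median-of-ratios scaling, and 8 to 12 when single libraries were left out. The number that rose (1) was 8 with quantile normalization (18.1% of all genes), 8 without both libraries numbered 1 (14.5% of all genes), and 0 both without a filter on low values and with eBayes without trend, and 0 to 4 when single libraries were left out. As shares, the number that fell (8) was 4 with eBayes without trend and 6 to 8 without single libraries. The number that rose (9) was 4 without a filter on low values, 1 with eBayes without trend and 15 without both libraries numbered 1. It was 4 to 11 when single libraries were left out. With the GC trend removed it was 1, but that removal also takes out the division by the summed TPM. For the alternatives run on shares, the part of all genes that fell or rose is not given. The median log2 change of the members (-0.03) was 0.013 with the GC trend removed, 0.009 without both libraries numbered 1, 0.046 with median-of-ratios scaling, 0.005 when TPM was rescaled after leaving out mitochondrial and ribosomal protein genes, and -0.093 to 0.001 when single libraries were left out. The ratio of the mean sums (0.896) was 0.950 with median-of-ratios scaling and 0.870 to 0.924 without single libraries. The cause of these shifts was not tested. RRN3 fell under every alternative run, by 2.60 to 3.40 on the log2 scale.

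The labels do not say that replicate numbers pair the libraries. Correlations of deviations from the group means for same-numbered libraries were 0.419, 0.095 and 0.159 across all tested genes, of which the second misses the 0.1 asked of every pair, and 0.737, 0.174 and 0.707 across the 43 members. Across all tested genes control siRNA replicate 2 correlated best with RRN3 siRNA replicate 3 (0.194). With a replicate block 15 members fell and 6 rose as deposited (26.7% and 18.9% of all genes). As shares 9 fell and 17 rose, and the part of all genes that did so on this scale is not given. RPL7, RPL36A, RPL37 and RPL31 then rose as deposited (adjusted p = 0.00135, 0.0223, 0.0171 and 0.0488). Depth is unknown, so no counting error could be given.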
